A study of Mus musculus with 11 samples.

Results

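The comparison of tumours given palbociclib together with OPG-Fc against tumours given palbociclib alone rested on 6 of the 11 sequenced tumours, 3 in each group. Every tumour was grown from 4T1 cells, an established mouse mammary tumour line that models triple-negative breast cancer, injected in Matrigel under the skin of both flanks. Treatment began at a tumour volume of about 100 mm3 and lasted 12 days. Palbociclib, which inhibits CDK4 and CDK6, was given by mouth at 30 mg/kg per day in both groups, and the combination group also received OPG-Fc by injection into the abdomen at 10 mg/kg 3 times a week. The other 5 tumours received OPG-Fc alone (n = 3, the same dose) or vehicle, a mixture of sodium lactate, corn oil and DMSO (n = 2), and serve here for levels without palbociclib and for the interaction. The labels call the 4T1 cells wild type. The vehicle tumours are titled as untreated, but their treatment field says vehicle. The design text places the tumours in NSG mice, which lack T, B and NK cells, whereas the series title speaks of a syngeneic model. Which tumours came from 1 animal is not given in the labels. The first number in the column name is the same for combination replicates 1 and 2, and for OPG-Fc replicates 2 and 3. The p-values therefore measure the spread between tumours, taken as independent, and not the spread between animals.

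Of 17181 genes, 12450 had at least 1 FPKM (fragment counts scaled by transcript length and library total) in at least 2 of the 6 libraries and were tested. The question was what blockade of RANKL adds to inhibition of CDK4/6. RANKL (encoded by Tnfsf11) binds its receptor RANK (Tnfrsf11a) and activates NF-kB signalling. It drives the formation of bone-resorbing osteoclasts from myeloid precursors and, in the mammary gland, carries the progesterone signal that expands epithelial progenitors. Osteoprotegerin (Tnfrsf11b) is the natural soluble decoy receptor for RANKL, and OPG-Fc is a form of it fused to an antibody Fc part. CDK4 and CDK6, with D-type cyclins, phosphorylate the retinoblastoma protein RB and so release the E2F factors that start transcription of the genes for DNA replication. Mitosis genes are kept silent in resting cells by the DREAM complex, which holds RB relatives, and are switched on later in the cycle.

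The FPKM values of the 6 libraries summed to between 651306 and 864670, and 11886 to 12181 genes reached 1 FPKM in each. Read depth is unknown, because the values cannot be turned back into reads. The tumours carried the epithelial keratin Krt8 at 675 to 823 FPKM and the adhesion molecule Epcam at 356 to 604 FPKM. Vehicle replicate 2 stood apart from all others in the series, with Krt8 at 9.34 and Epcam at 11.7 FPKM. Its T, B and NK cell markers were at a mean log2(FPKM + 1) of 6.83, and it was left out of the 10-library fit given below. OPG-Fc replicate 2 was at 4.54 for these lymphoid markers and the other 9 libraries were between 1.21 and 2.63. The part of lymphoid transcripts in levels and interactions that use these 2 libraries was not tested. Among the 6 libraries, the first principal component held 59.2% of the variance and set palbociclib replicates 1 and 3 (scores 33.5 and 34.0) apart from combination replicate 3 (-47.1), with the other 3 libraries between -9.19 and -2.20. Palbociclib replicates 1 and 3 were also the libraries with high levels of skin transcripts, described with the skin genes below.

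Promoter sequence is shown for 6 genes, as examples of the macrophage, mitosis and interferon-response groups. Values of these genes are given below, except for Ube2c. Most members of each group differed in 1 direction, and many hold a short motif found in a smaller share of promoters at large. The sequences are the 250 bases before the annotated start, from RefSeq on build GRCm38.p6, in the direction of the gene. Each motif was searched on both strands, so a capital run can be its reverse complement, and matches of different motifs can share letters. Only the motif named with a gene is in capitals. A match describes letters and is not evidence that a factor binds.

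The macrophage markers Cd68 (chr11:69666171-69666420 on the minus strand) and C1qb (chr4:136886201-136886450 on the minus strand) hold GAGGAA, a core that factors of the PU.1 type recognise, in capitals:
Cd68: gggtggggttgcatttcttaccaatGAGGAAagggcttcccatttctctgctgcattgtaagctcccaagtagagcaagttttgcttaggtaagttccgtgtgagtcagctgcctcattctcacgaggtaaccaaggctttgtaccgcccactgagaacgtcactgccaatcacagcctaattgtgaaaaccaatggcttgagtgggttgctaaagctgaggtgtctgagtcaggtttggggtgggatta
C1qb: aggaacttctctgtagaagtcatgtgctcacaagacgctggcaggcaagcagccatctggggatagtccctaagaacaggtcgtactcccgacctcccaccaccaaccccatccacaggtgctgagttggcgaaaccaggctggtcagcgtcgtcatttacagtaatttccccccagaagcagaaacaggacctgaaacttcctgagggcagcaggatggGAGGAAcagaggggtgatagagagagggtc
The motif was present in the windows of 9 of 13 macrophage markers with a promoter in the table (69.2%) and of 22.7% of 9923 tested genes.

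The mitosis genes Cdc20 (chr4:118437344-118437593 on the minus strand) and Ube2c (chr2:164769679-164769928 on the plus strand) hold TTTGAA, the cell cycle genes homology region, in capitals, 18 and 29 bases before the start:
Cdc20: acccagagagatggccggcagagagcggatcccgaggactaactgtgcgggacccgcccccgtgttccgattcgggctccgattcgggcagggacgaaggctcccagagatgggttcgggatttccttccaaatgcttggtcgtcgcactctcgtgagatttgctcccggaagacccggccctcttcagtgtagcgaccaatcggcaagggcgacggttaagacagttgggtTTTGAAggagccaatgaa
Ube2c: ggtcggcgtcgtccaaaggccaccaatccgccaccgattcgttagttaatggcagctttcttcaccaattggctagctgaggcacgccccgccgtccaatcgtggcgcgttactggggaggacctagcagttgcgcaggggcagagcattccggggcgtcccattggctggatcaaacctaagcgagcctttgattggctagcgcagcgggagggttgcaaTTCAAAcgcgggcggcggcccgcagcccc
TTTGAA was present in 10 of 33 mitosis promoters (30.3%) against 10.8% of all, and the CCAAT box, CCAAT, in 26 of 33 (78.8%) against 36.9%. Matches were not always near the start: Ccnb2, another mitosis gene, held TTTGAA 167 bases before it.

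The interferon-response genes Oas3 (chr5:120777660-120777909 on the minus strand) and Ifit3b (chr19:34607707-34607956 on the plus strand) hold the interferon-stimulated response element, searched as GAAA, any 2 bases and GAAA again, in capitals:
Oas3: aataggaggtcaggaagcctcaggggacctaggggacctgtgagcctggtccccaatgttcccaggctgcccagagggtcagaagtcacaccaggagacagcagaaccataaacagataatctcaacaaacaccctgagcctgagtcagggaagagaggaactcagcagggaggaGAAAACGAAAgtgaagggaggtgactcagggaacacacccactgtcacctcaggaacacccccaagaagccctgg
Ifit3b: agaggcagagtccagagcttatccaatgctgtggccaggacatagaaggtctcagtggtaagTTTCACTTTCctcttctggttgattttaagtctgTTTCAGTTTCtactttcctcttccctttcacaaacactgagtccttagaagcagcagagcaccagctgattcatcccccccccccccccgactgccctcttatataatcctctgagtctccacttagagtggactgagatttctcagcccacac
This element was present in 10 of 25 promoters of the interferon list (40%) against 2.8% of all.

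No gene passed a Benjamini-Hochberg adjusted p of 0.05 in the limma fit to the 6 libraries (0% of 12450), where the smallest adjusted p was 0.180. In that fit 1099 genes were higher in the combination at an unadjusted p under 0.05 (8.83%) and 594 were lower (4.77%). The 3 combination libraries all lay above the 3 palbociclib libraries for 1671 genes (13.4%) and all below them for 914 (7.34%). The log2 fold change, always combination minus palbociclib on log2(FPKM + 1), was above 0 for 51.5% of genes and had a median of 0.01. The OPG-Fc libraries and vehicle replicate 1 were then added to the fit. In it 28 genes (0.225%) were higher and 6 (0.0482%) were lower in the combination, with adjusted p from limma between 0.049 and 0.0498. Vehicle replicate 1 was alone in its group and added nothing to the spread within groups. A fit to the 9 treated libraries thus rests on the same spread and is no separate check. The same 34 genes passed in it. None of them passed in the 10-library fit once combination replicate 1, combination replicate 3, palbociclib replicate 1 or palbociclib replicate 3 was left out, whereas 181 genes passed without combination replicate 2 and 404 without palbociclib replicate 2. With all 11 libraries the count was 0. Genes are therefore described below by their values, and those that passed in the 10-library fit are named as such.

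**Figure D1:**
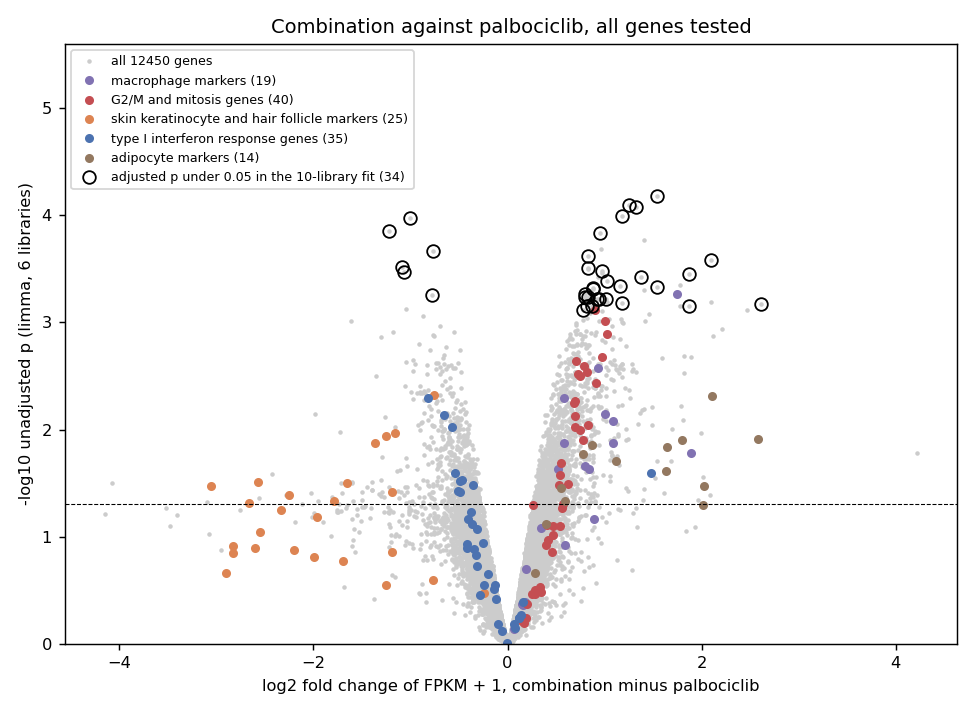
Each point is a gene, with the log2 fold change of FPKM + 1 (combination minus palbociclib) on the x axis and -log10 of the unadjusted p from limma on the 6 libraries on the y axis; colours mark 5 gene lists, open circles the 34 genes that passed in the 10-library fit, and the dashed line is an unadjusted p of 0.05. Macrophage, mitosis and adipocyte genes lie to the right of 0, skin genes to the left, and most interferon-response genes to the left.

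The gene with the smallest p was Alox5ap, the activating protein of leukotriene synthesis in myeloid cells, which was at 87.4, 66.6 and 115 FPKM in the combination and at 32.1, 29.6 and 26.9 with palbociclib. The lowest combination tumour was above the highest palbociclib tumour, and the log2 fold change was 1.54 ± 0.20 (SE), with an adjusted p from limma of 0.180 in the 6-library fit and 0.049 in the 10-library fit. Tumours given OPG-Fc alone held 85.8, 72.2 and 75.0 FPKM, and vehicle replicates 1 and 2 held 35.2 and 85.6. The combination tumours were thus at the level of the OPG-Fc tumours, and the palbociclib tumours at that of vehicle replicate 1.

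Folr2, a folate receptor of tissue-resident macrophages, had the largest log2 fold change of the 28 genes, 2.61. It measured 67.3, 24.9 and 93.6 FPKM in the combination against 13.1, 6.76 and 5.75 with palbociclib. Fcna, a lectin that activates complement, measured 11.7, 7.56 and 19.8 FPKM against 3.30, 2.43 and 2.18, and Pltp, which transfers phospholipids between lipoproteins, 107, 46.6 and 110 against 29.8, 18.5 and 18.5. In each of these 3 genes combination replicate 2 was the lowest of its group and still above every palbociclib tumour. Ms4a8a, a membrane protein of alternatively activated macrophages, was at 5.17, 2.89 and 9.12 FPKM in the combination and below the filter of 1 FPKM in all 3 palbociclib tumours (0.71, 0.43 and 0.27), a log2 fold change of 2.10 ± 0.33. It had therefore been kept only through the combination. Folr2, Fcna, Pltp and Ms4a8a all passed in the 10-library fit. Folr2, Fcna and Pltp were picked from its 34 genes after their values were seen.

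Fc receptors and phagocyte enzymes were also among these genes. Fcgr3, a low-affinity receptor for IgG, was at 122, 95.7 and 116 FPKM against 55.9, 69.6 and 48.2. Fcgrt, the receptor that recycles IgG, was at 87.5, 49.6 and 94.2 against 30.8, 25.7 and 19.5. Ncf4, a subunit of the phagocyte NADPH oxidase, had a log2 fold change of 0.87, and Il10ra, a chain of the interleukin-10 receptor, 0.80. These 4 passed in the 10-library fit and were likewise named after their values were seen. Cd302, a lectin of phagocytes, was at 26.7, 19.2 and 20.9 FPKM against 10.2, 9.51 and 8.04, and Adgre5, the leukocyte adhesion receptor CD97, at 9.69, 10.7 and 11.9 against 5.25, 5.38 and 4.62. Both passed there too. Clec4n, which encodes the fungal pattern receptor dectin-2, the formyl peptide receptor gene Fpr2 and Cd300ld5 did not overlap between the groups either, with log2 fold changes of 0.83, 0.96 and 1.41, but had adjusted p of 0.062, 0.073 and 0.060 in the 10-library fit. Of the other genes among the 12 higher ones with the smallest p, 3 encode proteins with general roles, and they passed in that fit. They were Tubb6, a beta-tubulin, at 128, 130 and 150 FPKM against 67.2, 84.0 and 77.7, Renbp, renin-binding protein, with a log2 fold change of 0.83, and Mcub, a subunit that restrains mitochondrial calcium uptake, with 0.97.

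**Figure D2:**
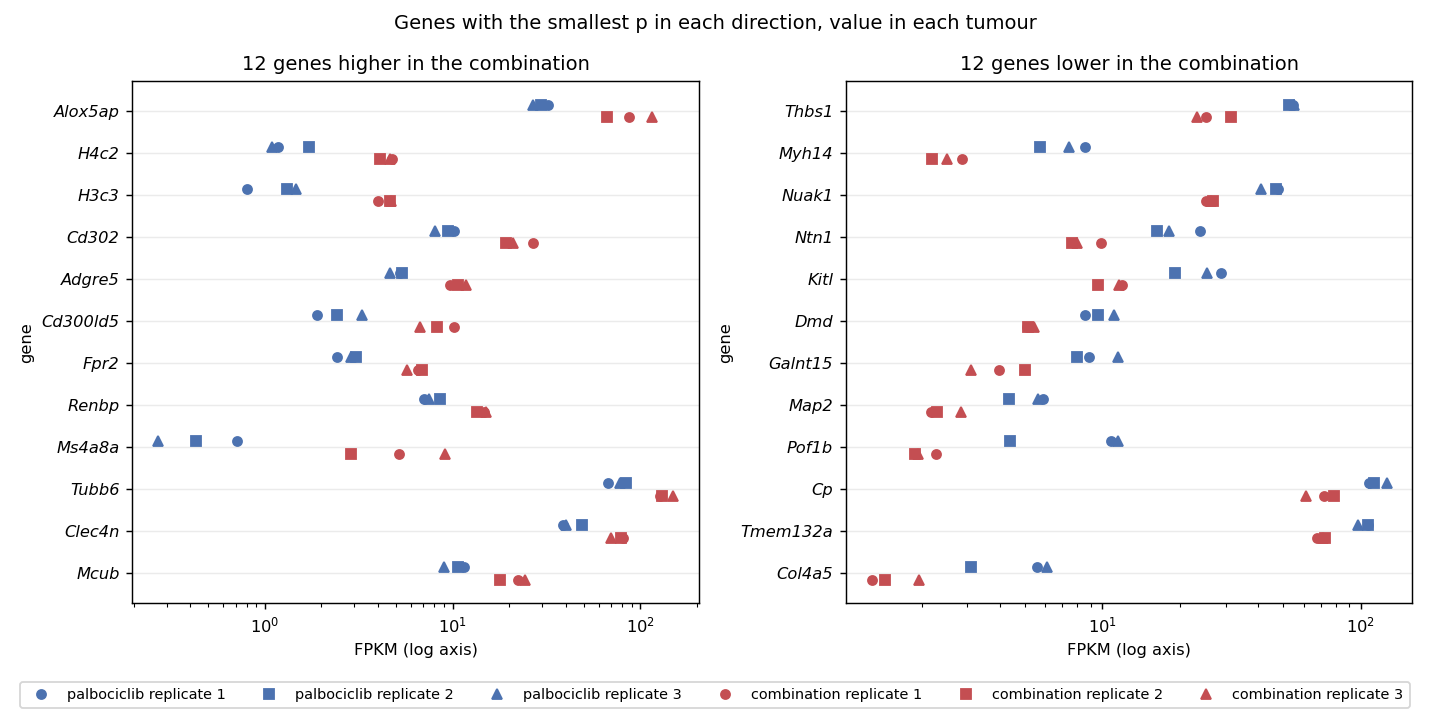
FPKM on a log axis in each of the 6 tumours for the 12 genes with the smallest p in each direction; blue symbols are palbociclib, red symbols the combination, and the circle, square and triangle are replicates 1, 2 and 3. The red and blue symbols do not overlap for any of the 24 genes.

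Macrophage markers as a list were higher in the combination. All 19 were tested, none had passed the filter through 1 group only, and the mean FPKM was higher in the combination for 19 of 19. The groups did not overlap for 10 of 19 (background 13.4%) and the unadjusted p was under 0.05 for 11 (background 8.83%), none in the other direction, and the list's median log2 fold change was 0.59 against 0.01 over all genes. The mean log2(FPKM + 1) of the list was 6.38, 5.95 and 6.39 in the combination tumours and 5.63, 5.57 and 5.37 in the palbociclib tumours, against 6.58 to 6.81 with OPG-Fc alone and 5.84 and 5.81 in the vehicle tumours. In bulk tissue, more cells of a type and more RNA of their genes per cell cannot be told apart.

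Lyz2, lysozyme, was the macrophage marker with the smallest p. It was at 1527, 896 and 2195 FPKM in the combination and at 434, 491 and 368 with palbociclib, a log2 fold change of 1.75 ± 0.31 with an adjusted p from limma of 0.180 (0.052 in the 10-library fit). Cd68, a lysosomal protein of macrophages whose promoter is shown above, was at 99.3, 62.4 and 102 FPKM against 52.4, 43.8 and 37.9. The C1q chains of complement followed, with C1qb at 354, 233 and 572 FPKM against 164, 205 and 145, and C1qc at 436, 278 and 630 against 198, 241 and 196. Csf1r, which encodes the receptor of the cytokine CSF1, was at 51.2, 36.2 and 40.4 FPKM against 26.8, 28.3 and 28.7. Cd163, a haemoglobin scavenger receptor, had a log2 fold change of 1.89 ± 0.62, but rested in part on combination replicate 1 (37.3 FPKM, with 10.2 and 10.1 in the others and 9.51, 1.98 and 1.99 with palbociclib). Markers with small differences were Itgam (0.06), Spp1 (0.15), Mertk (0.16), Cx3cr1 (0.17) and Cd14 (0.19).

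Other leukocyte lists had medians nearer to 0. The median over 16 tested neutrophil markers was -0.03, which became 0.63 without combination replicate 3. The neutrophil granule protein gene Ngp was at 1.84, 2.74 and 1.08 FPKM in the combination and at 0.12, 0.35 and 0.79 with palbociclib. Ngp had thus passed the filter through the combination only. Ltf, lactoferrin, was lower in the combination at 0.90, 0.51 and 1.5 against 3.23, 2.87 and 5.56. Osteoclast-type genes, the cells that RANKL is best known to form, had a median of 0.00 over 10 tested genes. Of these, Acp5, the tartrate-resistant phosphatase, was at 58.1, 60.8 and 79.7 FPKM against 46.2, 51.4 and 44.1, and Ctsk, the collagen-degrading protease cathepsin K, at 64.7, 58.3 and 44.0 against 48.0, 38.1 and 43.8, and the groups of Ctsk overlapped. Ocstamp, needed for osteoclast fusion, overlapped between the groups at 1.00 to 1.59 FPKM against 1.30 to 2.32. T, B and NK cell markers, in these 6 tumours at a mean log2(FPKM + 1) of 1.64 to 2.50 in the combination and 1.21 to 1.93 with palbociclib, had a median of 0.26, which turned to -0.02 without palbociclib replicate 3 and -0.01 without combination replicate 3. Jchain, the joining chain of plasma cell antibodies, was at 0.72, 1.53 and 8.97 FPKM in the combination and at 0.04, 0.09 and 0.15 with palbociclib, so it had passed the filter through the combination only.

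Mitosis genes were higher in the combination. All 40 genes of the G2/M list were tested, none through 1 group only, and the mean FPKM was higher in the combination for 40 of 40. The unadjusted p was under 0.05 for 22 of 40 (background 8.83%) and the groups did not overlap for 21 of 40 (background 13.4%), with a median log2 fold change of 0.56. By tumour, the list's mean log2(FPKM + 1) was 5.14, 4.72 and 4.70 in the combination and 4.11, 4.10 and 4.66 with palbociclib. Palbociclib replicate 3 was thus close to the lower combination tumours, and the list's median was between 0.39 and 0.77 when each library was left out. OPG-Fc tumours were at 4.80 to 5.04 and the vehicle tumours at 4.60 and 4.84, so the tumours with the lowest values of all 11 were palbociclib replicates 1 and 2.

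Cdc20, which activates the anaphase-promoting complex, was at 65.3, 48.9 and 69.9 FPKM in the combination and at 29.9, 30.0 and 36.9 with palbociclib. Its log2 fold change was 0.90 ± 0.17, with an adjusted p from limma of 0.180 in the 6-library fit and 0.062 in the 10-library fit. Pttg1, securin, was at 102, 80.1 and 119 FPKM against 42.2, 44.9 and 61.3, and Birc5, the survivin of the chromosomal passenger complex, at 151, 101 and 157 against 57.4, 59.8 and 80.3. Cdca3, a trigger of mitotic entry, was at 47.2, 36.7 and 54.3 against 18.1, 21.3 and 30.0, and Cdc25c, the phosphatase that activates CDK1, at 13.5, 13.8 and 13.4 against 6.76, 7.34 and 9.97. In each of these 5 genes palbociclib replicate 3 was the highest of its group and still below every combination tumour. Mki67, the proliferation antigen Ki-67, overlapped, at 36.1, 21.5 and 16.9 FPKM in the combination and 16.4, 13.4 and 28.0 with palbociclib.

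Genes of the G1/S transition and DNA replication had a smaller median than the mitosis genes. Of 40, the unadjusted p was under 0.05 for 4, all higher and a share near the background of 8.83%, the groups did not overlap for 8 (background 13.4%), and the median log2 fold change was 0.26, which became 0.14 without palbociclib replicate 1 and 0.16 without combination replicate 1. Tk1, thymidine kinase, was at 131, 100 and 141 FPKM against 67.2, 82.0 and 91.4, and Tyms, thymidylate synthase, at 20.6, 17.1 and 21.8 against 11.9, 13.3 and 16.3. Mcm5, a subunit of the replicative helicase, was at 50.9, 44.3 and 41.3 against 34.3, 35.2 and 38.8. Among 35 genes of homologous recombination and the Fanconi pathway the median was 0.13 (0.07 without combination replicate 1, and 0.27 without combination replicate 3 or without palbociclib replicate 3), and the unadjusted p was under 0.05 for 3, a share near the background of 8.83%.

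Genes of replication-dependent histones, chosen as a list after values of some of them were seen, were higher in the combination than in every other group. Of 58 in the table, 57 had a higher mean FPKM in the combination and the groups did not overlap for 31 (53.4%, against 11.7% of all 17181 genes without a filter). The filter was passed by 54, among them 8 through the combination only. H4c2 was at 4.75, 4.10 and 4.67 FPKM in the combination and at 1.18, 1.71 and 1.09 with palbociclib, and H3c3 at 4.00, 4.64 and 4.69 against 0.80, 1.32 and 1.47. OPG-Fc tumours held H4c2 at 1.51, 1.63 and 0.77 FPKM and the vehicle tumours at 0.60 and 2.42, all below the lowest combination tumour. The log2 fold changes were 1.25 ± 0.17 for H4c2 and 1.32 ± 0.18 for H3c3, and H2ac23 (1.37 ± 0.23) had 7.63, 6.18 and 9.28 FPKM against 1.54, 2.39 and 3.28. These 3 genes passed in the 10-library fit. The mean log2(FPKM + 1) of the list was 2.47, 2.03 and 2.79 in the combination, 1.24 to 1.74 with palbociclib, 1.24 to 1.68 with OPG-Fc and 0.92 and 1.55 in the vehicle tumours. Most mRNAs of these genes end in a stem-loop instead of a poly(A) tail, and the libraries were made from RNA captured by its poly(A) tail, so these low values count the part that was captured. H2bc23 and H2bc24 had identical values in all libraries used here, so near-identical copies share reads and single members are uncertain.

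**Figure D3:**
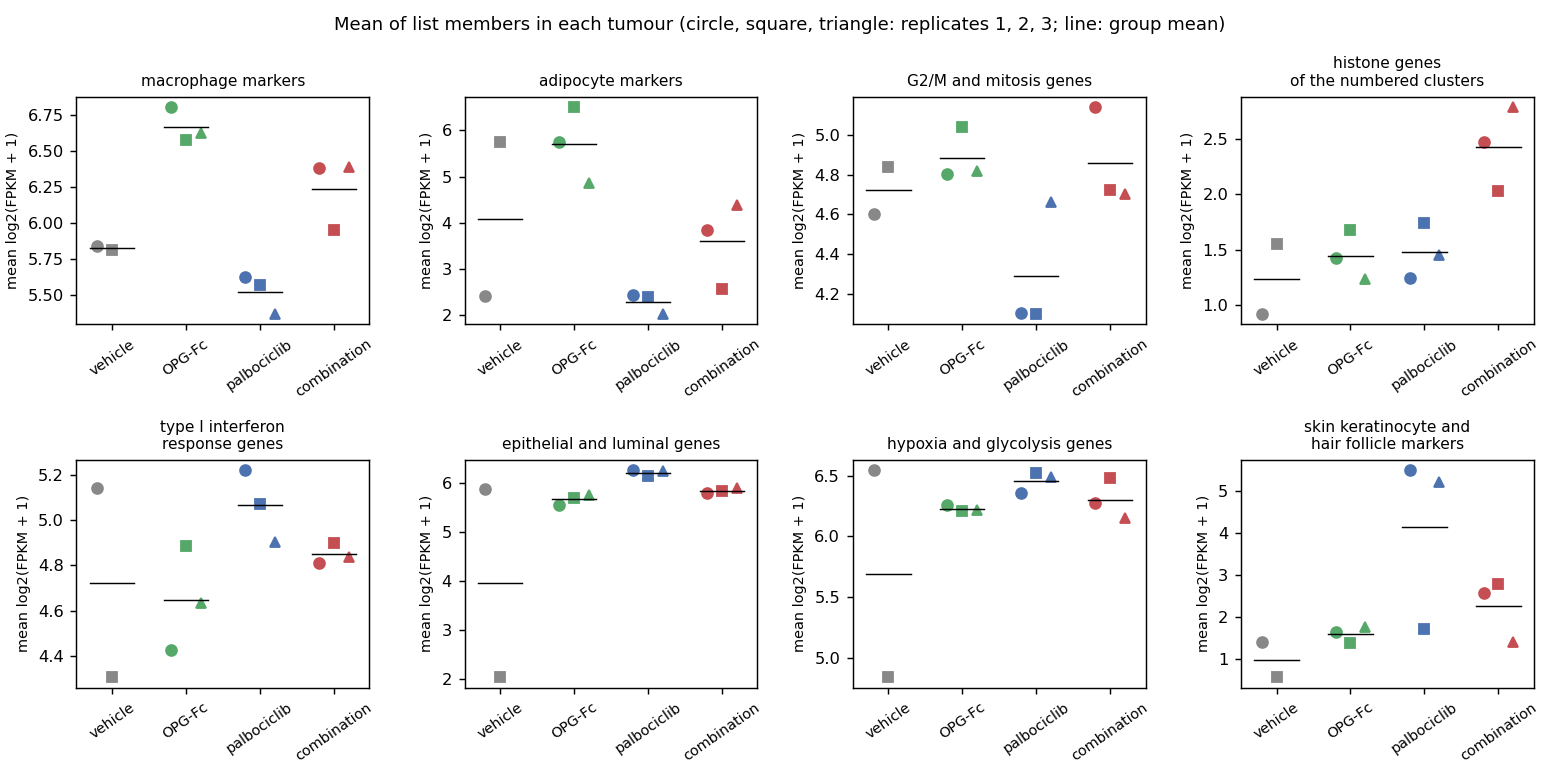
Mean log2(FPKM + 1) of the tested members of 8 gene lists (y axis, a separate scale in each panel) in each tumour of the 4 groups; circles, squares and triangles are replicates 1, 2 and 3, and lines are group means. Macrophage and epithelial lists separate the palbociclib from the combination tumours, mitosis genes are lowest in palbociclib replicates 1 and 2, histone genes are highest in the 3 combination tumours, and skin genes are high in palbociclib replicates 1 and 3.

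In the targeted pathways the differences were small. Cdk4 was at 383, 353 and 598 FPKM in the combination and at 324, 414 and 355 with palbociclib, and Cdk6 at 8.69, 6.38 and 5.62 against 12.2, 7.01 and 11.1. Their adjusted p from limma were 0.577 and 0.385, and the groups overlapped for both. Ccnd1, cyclin D1, was at 282, 264 and 175 FPKM against 276, 276 and 309, and Rb1, which encodes RB, at 5.24, 5.13 and 2.76 against 3.67, 3.16 and 5.57. E2f1 was at 18.7, 15.1 and 14.7 FPKM against 13.1, 15.01 and 17.3, and the E-type cyclin Ccne2 at 6.33, 5.82 and 2.75 against 3.30, 3.67 and 7.38. The other E-type cyclin, Ccne1, did not overlap, at 8.83, 7.89 and 9.02 FPKM against 5.23, 6.03 and 7.04, a log2 fold change of 0.44 ± 0.15 with an adjusted p from limma of 0.292.

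Inhibitors of the cyclin-dependent kinases differed in both directions. Cdkn2d, p19INK4d, an inhibitor of CDK4 and CDK6, was at 32.1, 30.4 and 36.7 FPKM in the combination and at 16.1, 20.9 and 19.1 with palbociclib, with OPG-Fc tumours at 25.6, 30.4 and 27.4. Its log2 fold change was 0.79 ± 0.14 and it passed in the 10-library fit. Cdkn1a, p21, was at 37.1, 42.8 and 36.0 FPKM against 31.1, 33.4 and 27.6 (log2 fold change 0.32 ± 0.13), and Cdkn1b, p27, at 32.6, 33.9 and 24.4 against 35.04, 40.2 and 42.9 (-0.38 ± 0.16), neither past the threshold in the 6- or 10-library fit. Cdkn2a was under the filter, with 0.51, 0.63 and 1.12 FPKM in the combination and 0.18, 0.30 and 0.18 with palbociclib. Over the 20 tested genes of the CDK4/6-RB machinery the median was 0.08, with 3 higher (background 8.83%) and 1 lower (4.77%) at an unadjusted p under 0.05.

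RANK, its ligand and its decoy receptor were at low levels. Tnfrsf11a was at 1.71, 1.22 and 1.36 FPKM in the combination and at 0.91, 1.08 and 0.95 with palbociclib, which do not overlap, with a log2 fold change of 0.29 ± 0.17 and an adjusted p from limma of 0.434. Tnfsf11 was at 1.58, 2.07 and 0.36 FPKM against 1.34, 0.87 and 1.45, and Tnfrsf11b at 2.89, 4.54 and 1.45 against 5.93, 2.91 and 4.2. Over the 20 genes of the RANK pathway the median was -0.06 (0.07 without combination replicate 3), and the only gene with an unadjusted p under 0.05 was Relb, a subunit of the alternative NF-kB pathway, at 18.0, 19.9 and 20.6 FPKM against 13.5, 15.4 and 10.5. NF-kB target genes had a median of 0.18 over 23 tested, with 4 higher (background 8.83%) and none lower at an unadjusted p under 0.05, and this median was 0.10 without palbociclib replicate 1 and 0.36 without combination replicate 3. Those 4 were Icam1, Relb, Bcl3 and Tnf. Icam1, an adhesion molecule for leukocytes, was at 10.95, 10.1 and 9.53 FPKM against 6.69, 7.71 and 7.06, and the cytokine gene Tnf at 3.09, 3.64 and 4.57 against 1.97, 2.68 and 1.31.

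Fat and connective tissue genes were higher in the combination, with a wide spread among its tumours. All 17 adipocyte markers in the table had a higher mean in the combination and the groups did not overlap for 6 (11.7% of all genes without a filter), while 14 passed the filter, 3 of them through the combination only. The median of the 14 was 1.37. The list's mean log2(FPKM + 1) was 3.85, 2.56 and 4.39 in the combination and 2.45, 2.39 and 2.03 with palbociclib, so that combination replicate 2 was near the palbociclib tumours. Fabp4, a fatty acid carrier, was at 213, 68.6 and 358 FPKM against 59.0, 63.3 and 44.2, and Adipoq, adiponectin, at 17.0, 3.28 and 23.1 against 4.21, 2.72 and 2.21. OPG-Fc tumours held Fabp4 at 671, 1141 and 428 FPKM and vehicle replicates 1 and 2 held 48.0 and 518.

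Among 31 fibroblast and matrix genes the groups did not overlap for 12 higher (background 13.4%) and 1 lower (background 7.34%), and 11 were higher at an unadjusted p under 0.05 (background 8.83%). The median was 0.32, and 0.17 without combination replicate 1. Dpt, dermatopontin, was at 20.0, 12.7 and 24.9 FPKM against 9.23, 7.11 and 7.14, Dcn, decorin, at 105, 90.8 and 69.8 against 62.6, 41.5 and 44.2, and Lox, the collagen cross-linking oxidase, at 25.6, 23.7 and 22.8 against 15.3, 17.8 and 15.3. Endothelial markers had a median of 0.18 over 17 tested, with Sox18, an endothelial transcription factor, at 7.24, 7.12 and 10.4 FPKM against 4.61, 5.49 and 4.33. By tumour, the mean log2(FPKM + 1) of the fibroblast list was 5.58, 5.29 and 5.20 in the combination and 5.21, 5.07 and 5.00 with palbociclib, and that of the endothelial list 3.00, 2.89 and 3.07 against 2.76, 2.93 and 2.78. The part of fat, connective tissue and vessels in the macrophage difference was not tested. Skeletal muscle markers, another tissue of the flank, had a median of 0.19 over 20 tested, which turned to -0.24 without combination replicate 1 and -0.09 without palbociclib replicate 3.

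**Figure D4:**
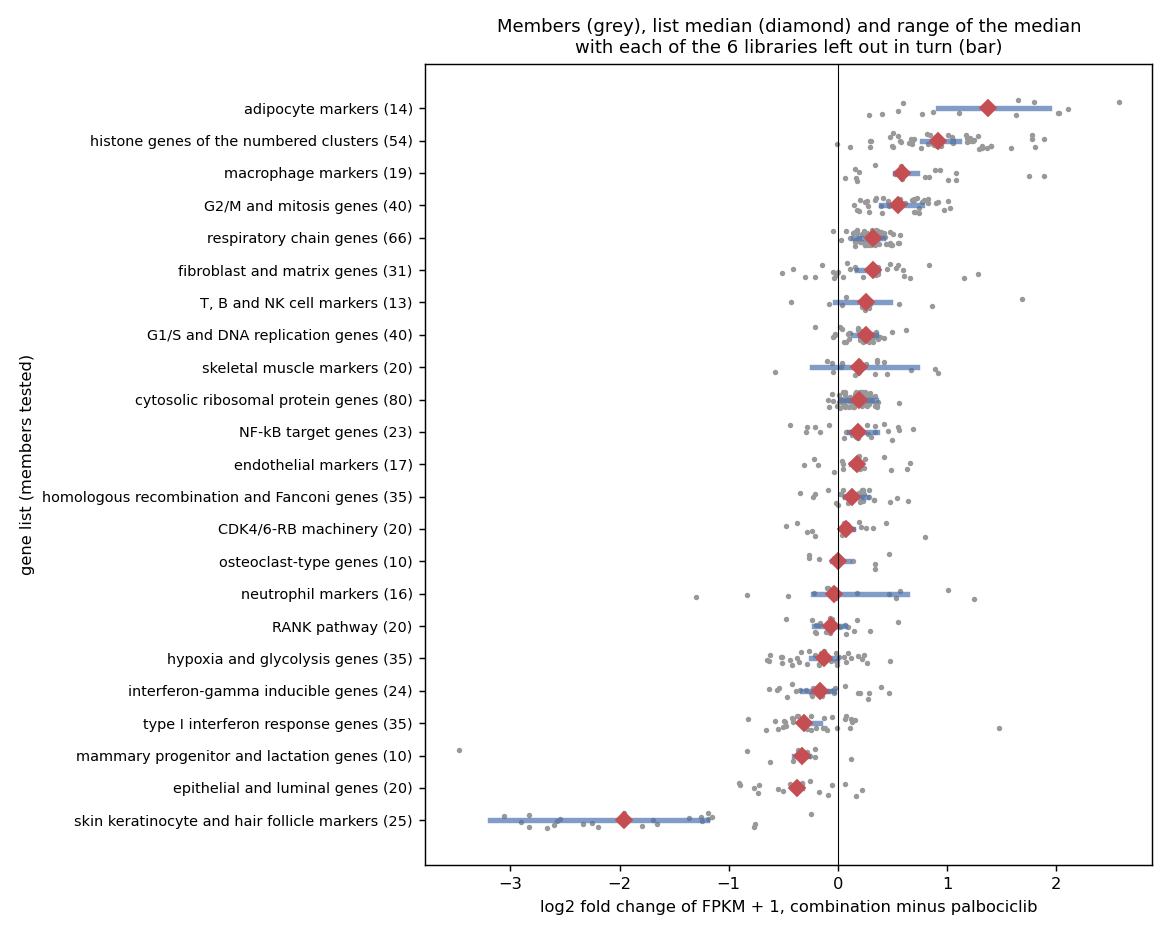
Log2 fold changes of FPKM + 1 (x axis, combination minus palbociclib) for the tested members of 23 gene lists (rows, number tested in brackets); grey points are genes, diamonds the list medians, and blue bars the range of the median when each of the 6 libraries was left out in turn. Adipocyte, histone, macrophage and mitosis medians lie above 0.5 and the skin median lies at -1.96 with the widest bar.

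Thbs1 led the genes that were lower in the combination. Thbs1, thrombospondin-1, a matrix protein that restrains vessel growth, was at 25.3, 31.5 and 23.3 FPKM in the combination and at 54.6, 52.7 and 55.1 with palbociclib. The palbociclib tumours differed from each other by under 3 FPKM, and the log2 fold change was -1.004 ± 0.14, with an adjusted p from limma of 0.180 in the 6-library fit and 0.049 in the 10-library fit. OPG-Fc tumours, at 65.3, 54.7 and 46.8 FPKM, and vehicle replicate 1, at 62.7, were at the level of palbociclib, while vehicle replicate 2, at 10.2, was below every combination tumour. Kitl, the ligand of the receptor KIT, was at 11.9, 9.61 and 11.6 FPKM against 28.9, 19.1 and 25.4, and the guidance protein gene Ntn1, netrin-1, at 9.92, 7.60 and 7.95 against 23.8, 16.2 and 18.0. OPG-Fc tumours held Kitl at 17.2 to 23.5 FPKM and Ntn1 at 14.98 to 18.2. Nuak1, a kinase related to AMPK, was at 25.1, 26.9 and 26.4 FPKM against 48.0, 46.7 and 40.9. Dmd, dystrophin, was at 5.12, 5.16 and 5.42 against 8.59, 9.63 and 11.04, and Myh14, a non-muscle myosin heavy chain, at 2.87, 2.19 and 2.50 against 8.56, 5.75 and 7.43. These 6 were the genes that were lower in the 10-library fit.

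The other 6 of the 12 lower genes with the smallest p did not pass in either fit. They were Galnt15 (log2 fold change -1.05), Map2 (-0.87), Pof1b (-1.61), Cp (-0.70), Tmem132a (-0.55) and Col4a5 (-1.18). Pof1b, an actin-binding protein of epithelia, was at 2.28, 1.89 and 1.94 FPKM in the combination and at 10.8, 4.38 and 11.5 with palbociclib. Cp, ceruloplasmin, the copper-carrying ferroxidase, was at 71.97, 78.9 and 61.1 against 107, 112 and 126.

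Epithelial genes were lower in part. Of 21 epithelial and luminal genes in the table, 17 had a lower mean in the combination and 4 a higher one, and the groups did not overlap for 7 lower and 1 higher (6.03% and 11.7% of all genes without a filter). Of the 20 tested, 1 through palbociclib only, 9 were lower at an unadjusted p under 0.05 (background 4.77%), and the median was -0.38. Epcam was at 444, 356 and 463 FPKM against 604, 498 and 546. Esrp1, a splicing factor of epithelia, was at 32.3, 33.8 and 27.5 against 40.9, 36.8 and 45.2. Krt8 and Krt18, the keratins that define simple epithelia, had log2 fold changes of 0.06 ± 0.14 and 0.16 ± 0.17, and these did not pass the test. The median was between -0.42 and -0.33 when each library was left out and -0.28 with palbociclib replicates 1 and 3 both left out.

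Skin transcripts were high in palbociclib replicates 1 and 3. Krt10, a keratin of the upper epidermis, was at 113 and 73.4 FPKM in these and at 1.74 in palbociclib replicate 2, against 7.96, 9.37 and 1.57 in the combination and 0.65 to 2.68 in the other 5 tumours. Krtdap, a keratinocyte differentiation protein, was at 342, 0.36 and 329 FPKM with palbociclib and at 14.96, 21.9 and 0 in the combination. Lgals7, the keratinocyte galectin, was at 470, 33.0 and 386 against 23.01, 67.5 and 17.0. The size of these differences thus depended on 2 tumours, and so did the sign of the log2 fold change for Krt10 and Krtdap, but not for Lgals7. Palbociclib replicate 2 lay within the range of the combination for Krt10 and Lgals7. All 30 skin markers in the table had a lower mean in the combination. The groups did not overlap for 4 of them (13.3%, against 6.03% of all genes without a filter). Of the 25 that passed the filter, 6 through palbociclib only, the median was -1.96, and it was 0.45 when palbociclib replicates 1 and 3 were left out. The 4 that did not overlap were Perp, Ivl, Trp63 and Dsp. Perp, a desmosome protein also made by other epithelia, was at 133, 132 and 112 FPKM against 248, 159 and 244, and Trp63, the basal-cell transcription factor p63, at 1.05, 1.16 and 1.22 against 6.43, 1.59 and 5.94. Krt14, a basal keratin, overlapped, at 153, 198 and 97.0 FPKM against 490, 147 and 485, and so did Sfn, at 72.5, 79.2 and 75.5 against 116, 59.9 and 104.

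**Figure D5:**
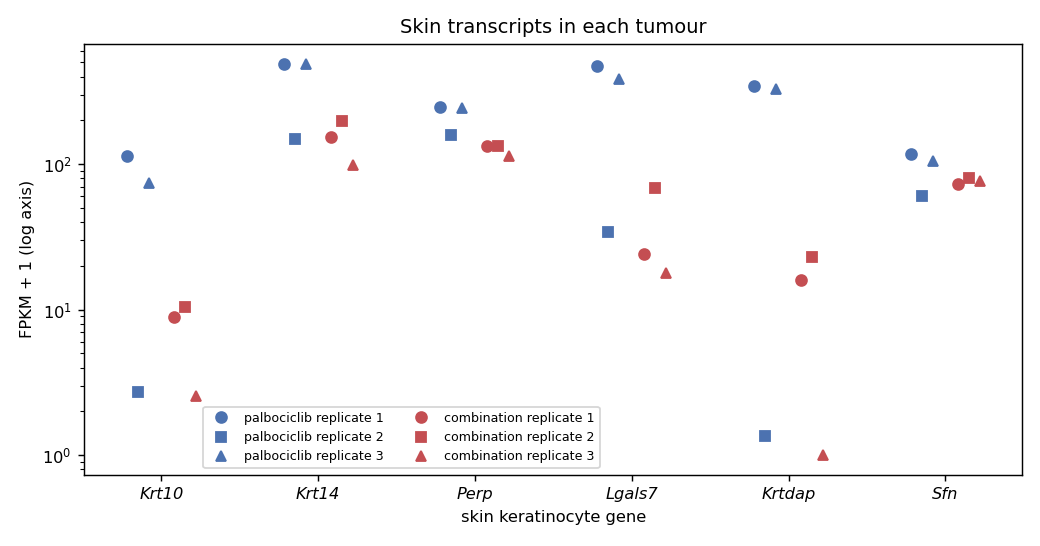
FPKM + 1 on a log axis of Krt10 and the 5 other skin keratinocyte genes with the highest mean, in each of the 6 tumours; blue is palbociclib, red the combination, and the circle, square and triangle are replicates 1, 2 and 3. Palbociclib replicates 1 and 3 lie above all combination tumours for all 6 genes, and replicate 2 lies below at least 1 combination tumour for all but Perp.

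The results above were recomputed without those 2 tumours, which leaves palbociclib replicate 2 alone in its group. The median log2 fold change was then 0.56 for macrophage markers, 0.79 for mitosis genes and 0.67 for histone genes. It was 1.21 for adipocyte markers and -0.24 for type I interferon genes. The 24 genes with the smallest p could not turn sign there, because their groups did not overlap. No gene passed in that fit.

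Most genes of the type I interferon response were lower in the combination. Of 35, all tested and none through 1 group only, 28 had a lower mean, the groups did not overlap for 12 lower and none higher (background 7.34% lower), and 9 were lower at an unadjusted p under 0.05 (background 4.77%). The median was -0.31, and -0.16 without palbociclib replicate 1. Oas3, an activator of RNase L whose promoter is shown above, was at 6.17, 6.95 and 4.2 FPKM against 13.6, 8.98 and 10.2, with a log2 fold change of -0.82 ± 0.21 and an adjusted p from limma of 0.195. Ifit3b was at 5.65, 7.19 and 6.07 FPKM against 12.0, 9.21 and 8.52, and Trim25, a ubiquitin ligase of RNA sensing, at 19.2, 17.8 and 14.3 against 33.5, 22.1 and 27.6. Ifi27l2a went the other way, at 129, 69.4 and 325 FPKM against 47.8, 79.1 and 34.5. The list's mean log2(FPKM + 1) was 4.81, 4.90 and 4.84 in the combination and 5.22, 5.07 and 4.90 with palbociclib, where replicate 3 was level with the combination. OPG-Fc tumours were at 4.42 to 4.89 and the vehicle tumours at 5.14 and 4.30. Of 24 interferon-gamma inducible genes 3 were lower at an unadjusted p under 0.05 (background 4.77%), all guanylate-binding proteins (Gbp4, Gbp6 and Gbp9), and the median was -0.16.

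Of 35 hypoxia and glycolysis genes 10 were lower at an unadjusted p under 0.05 (background 4.77%) and none higher, and the groups did not overlap for 10 lower (background 7.34%). P4ha1, a subunit of collagen prolyl hydroxylase, was at 45.2, 44.1 and 39.4 FPKM against 61.4, 63.8 and 59.0, and Ndrg1, a stress-response gene, at 236, 349 and 216 against 397, 408 and 427. The hexokinase gene Hk2 was at 16.1, 18.5 and 13.6 against 21.4, 23.99 and 24.3. The list's median was -0.13, and -0.01 without combination replicate 3. Of 66 genes of the respiratory chain 65 had a higher mean in the combination, with 7 higher at an unadjusted p under 0.05, a share near the background of 8.83%, and 18 not overlapping (background 13.4%). Their median of 0.32 was 0.14 without combination replicate 3 and 0.16 after quantile normalization. The 80 genes of cytosolic ribosomal proteins had a median of 0.19, which turned to -0.01 after quantile normalization and -0.13 without palbociclib replicates 1 and 3, and none had an unadjusted p under 0.05.

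The interaction asked whether the difference that OPG-Fc made on top of palbociclib differed from the difference it made on top of vehicle. No gene passed in the fit to 11 libraries (0%), where 707 genes (5.68%) had an unadjusted p under 0.05, or in that to 10 libraries (0%), with 589 (4.73%). In the fit to 11 libraries the count was 4480 without vehicle replicate 1, which leaves replicate 2 as the only vehicle tumour, and 88 without palbociclib replicate 2. Praf2, a membrane protein of vesicle transport, was the gene with the smallest p among positive interactions (1.02 on the log2 scale). It was at 28.4, 29.2 and 34.7 FPKM in the combination, 18.2, 20.6 and 16.7 with palbociclib, 28.9, 26.5 and 27.9 with OPG-Fc and 32.1 and 37.5 with vehicle. Praf2 was thus lower in the palbociclib tumours than in each of the other 3 groups. Ppp1ccb (1.30) and Gm6750 (1.22) followed. Among negative ones, Avpi1 (-1.35) was at 12.1 and 6.71 FPKM with vehicle, 19.2 to 26.9 with OPG-Fc, from 36.0 up to 42.8 with palbociclib and from 34.3 up to 40.5 in the combination. Cracr2b (-1.499) and 1190005I06Rik (-1.496) were also lowest in the vehicle tumours. The interaction of the myeloid gene Alox5ap was 1.05 ± 0.45, with an adjusted p from limma of 0.628, and with 10 libraries it was 0.42 ± 0.31.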

How the data were processed

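RNA captured by its poly(A) tail was sequenced from 11 tumours, and the 6 given palbociclib with or without OPG-Fc were compared. The authors deposited FPKM values for 17181 genes in 1 table. The submitters' processing notes name the tools RSEM, HISAT and Bowtie2 and the builds GRCm39 and mm39. Roles and versions are not given in the sources used here. FPKM does not keep the depth of a library, so precision is given only by the spread between tumours.

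Values were taken as log2(FPKM + 1), which understates changes of low genes. Genes with at least 1 FPKM in at least 2 of the 6 libraries (12450) were fitted in R 4.3.3 by limma 3.58.1 with 1 mean per group and a variance prior that follows the mean level, and p-values were adjusted by Benjamini-Hochberg over all of them (threshold 0.05). Errors are standard errors. The interaction was fitted to 11 libraries. With 3 against 3 tumours an exact two-sided permutation test cannot go below 0.1, so single genes rest on the variance shared across genes. The 36 gene lists, the members and the comparison were chosen with earlier results of these data known, and the histone list after values were seen. Named genes were the 12 with the smallest p in each direction, a panel of 13 RANK and CDK4/6 genes, up to 5 of the smallest p in each list, 6 skin genes and the 3 smallest p of the interaction in each direction. Genes outside this rule were named after their values were seen. A few genes that the rule names are not reported here.

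Alternatives varied the pseudocount, the filter, the scaling, the prior, the weights of libraries, which of them entered the fit, a replicate block, averaging of combination replicates 1 and 2, and a correction for transcript length and GC content (99% of tested genes had both). Those that start from 10 libraries were added after seeing the data. Promoters came from RefSeq on GRCm38.p6, an older build than the authors', and were matched by symbol. The fit was tested on simulated data. Python 3.11.15 and matplotlib 3.10.9 drew the figures.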

Additional observations from a re-analysis of the deposited data

How the results depend on the processing

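The count of genes past the threshold, 0 in the fit to 6 libraries, was 482 with array weights (355 higher and 127 lower), 34 with 9 or 10 libraries, and from 0 to 210 when each of the 6 libraries was left out, with 34 without combination replicate 2 and 210 without palbociclib replicate 2. It was 0 with the other pseudocount, filters, scalings and prior, with 11 libraries, and without palbociclib replicates 1 and 3. Starting from 10 libraries, leaving out each library gave 0 to 404 (181 without combination replicate 2 and 404 without palbociclib replicate 2), a pseudocount of 0.1 gave 56, the length and GC correction gave 90, and quantile normalization 0. The interaction, 0 in all, ranged from 0 to 4480 when each of the 11 libraries was left out. The causes were not tested.

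With the replicate number as a block, 0 genes passed in the 6-library and 0 in the 10-library fit. Same-numbered tumours had deviations from their group means that correlated at 0.27, -0.28 and -0.41, and differently numbered ones at -0.39 to 0.43. Deviations within a group of 3 are tied to each other. These values therefore cannot show whether a number marks a shared animal, batch or day.

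Over 20 alternatives, 2885 of 3040 fold changes of 153 named genes kept their direction and side of the threshold, 131 passed it, and 24 turned sign. Fits with 9, 10 or 11 libraries, with a prior that does not follow the mean level, or with the replicate block could not alter fold changes or list medians. Most alternatives, like the main fit, passed no gene, so keeping the side of the threshold says little. Without palbociclib replicates 1 and 3, Krt10 became 1.18, Krtdap 2.39, Krt6a 1.07, Sfn 0.33 and Ckm -0.27. Near 0 to begin with, Tnfsf11 became -0.12 with a pseudocount of 0.1, -0.010 with median-of-ratios scaling and -0.17 with combination replicates 1 and 2 averaged, where Rb1 became -0.062 and Ccne2 -0.10. Rb1 became -0.0024 after the length and GC correction. With single libraries left out, Tnfsf11 ranged from -0.24 to 0.35, Rb1 from -0.080 to 0.30, E2f1 from -0.014 to 0.18, Ccne2 from -0.13 to 0.36 and Tnnt1 from -0.014 to 0.68. Of 23 list medians, 15 kept their sign under every alternative.

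Fold changes fell with transcript length across genes (Spearman -0.29) and rose with GC content (Spearman 0.2). Depth being unknown, no limit of detection can be given, and fold changes of genes near 1 FPKM, such as Tnfsf11 and the histones, depend on the pseudocount.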

Other observations

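Other gene groups had medians near 0, some with members in both directions. The 20 tested p53 target genes had a median log2 fold change of 0.08, the 38 genes of the senescence-associated secretory list -0.04, the 28 of ER stress and chaperones -0.05, the 25 of sterol synthesis -0.01 and the 25 of the BCL2 family and death receptors 0.03. In the senescence list 6 of 38 were higher and 1 lower at an unadjusted p under 0.05 (backgrounds 8.83% and 4.77%), and in the ER stress list the groups did not overlap for 3 higher and 6 lower (backgrounds 13.4% and 7.34%). Among 20 mesenchymal genes the median was 0.25, with 4 higher at an unadjusted p under 0.05 (background 8.83%). Proteasome genes had a median of 0.17, and 6 of 31 did not overlap between the groups, all higher in the combination (background 13.4%), while 1 of 31 was higher at an unadjusted p under 0.05, a share below the background of 8.83%. Genes of MHC class I presentation, with a median of -0.08 over 21, had 3 that were lower without overlap (background 7.34%).

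Combination replicate 2 was the lowest of its group for the macrophage, adipocyte and histone lists, at mean log2(FPKM + 1) of 5.95, 2.56 and 2.03. Palbociclib replicate 3 was the highest of its group for the mitosis list, at 4.66, and the lowest for the macrophage and adipocyte lists, at 5.37 and 2.03.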
